A study of Homo sapiens with 12 samples.

Results

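The genes described here were 10 members of the BCL2 family, the proteins that set whether a cell survives or dies by apoptosis. They were chosen by name and fall into 3 roles: the anti-apoptotic genes BCL2, BCL2L1, BCL2L2 and MCL1, the effectors BAX and BAK1, and the BH3-only genes BAD, BID, BCL2L11 and BMF. All 10 were found among the 63677 gene identifiers counted, and all 10 were among the 26156 genes kept for testing after a filter on low counts. The samples were poly(A) RNA-seq libraries from LNCaP, an established androgen-responsive prostate cancer cell line. A TALEN control line was compared with a Bag-1L KO line, in which a TALEN (an engineered nuclease) had been directed at the start of Bag-1L, the longest protein made from the BAG1 gene. Each line was grown in full medium (FM) with serum, or kept for 72 h in hormone-poor medium with charcoal-treated serum and then given ethanol (EtOH, the vehicle) or 10 nM dihydrotestosterone (DHT), an androgen, for 16 h. The 6 groups had 2 samples each, which the submitters describe as biological duplicates of the same line. KO cells were obtained as clones from diluted, TALEN-transfected cells and 1 KO line was measured, so the knockout and any other difference between the lines cannot be told apart.

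In the mitochondrial pathway of apoptosis, BAX and BAK1 make pores in the outer mitochondrial membrane, and cytochrome c leaves through them to activate caspases. BCL2, BCL-XL (the main product of BCL2L1), BCL-W (BCL2L2) and MCL1 hold BAX and BAK1 in check. The BH3-only proteins bind the anti-apoptotic proteins through a short helix and so free the effectors, and BID and BIM (the product of BCL2L11) can also activate the effectors directly. Bag-1 takes its name from its discovery as a partner of BCL2, and normal prostate epithelium dies by apoptosis when androgen is withdrawn.

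Each sample held from 20826843 to 30354666 counts over genes, and every member had at least 63 counts in every sample. Values below are normalized read counts (counts divided by the DESeq2 size factor of the sample), log2 fold changes carry their standard error (SE), and adjusted p-values are from DESeq2 over all genes. A gene was called at an adjusted p of 0.05 or less together with a change of 1.5-fold or more. Counts of BAG1 do not measure Bag-1L by itself, since the study states that the Bag-1 proteins are made from the same mRNA. They were lower in KO in EtOH (log2 -0.94, SE 0.18, adjusted p = 6.35e-06) and in DHT (-1.14, SE 0.18, adjusted p = 7.71e-09). In FM the difference of -0.43 (SE 0.18) did not pass (adjusted p = 0.0682). The control EtOH samples of BAG1 lay apart, at 1701.5 in replicate 1 and 2702.6 in replicate 2, against 1191.4 and 1103.0 in KO EtOH. The luminal prostate genes KLK2, KLK3, FOLH1, HOXB13, KRT8 and KRT18 were each at 3303.2 normalized counts or more in all 12 samples. Of markers of other cells, the basal genes KRT5 and TP63 had at most 3 and 4 counts, the leukocyte genes PTPRC and CD3E at most 1 and the stromal gene DCN at most 9. COL1A1 (370.3 to 1012.6) and VWF (127.0 to 240.7) were detected in every sample. Some moved with the groups: the basal gene KRT14 (0.0 to 30.7) was higher in FM than in EtOH by 2.35 in control and 3.77 in KO, COL1A1 was lower in FM (-0.81 and -0.86), and COL3A1 (3.0 to 38.4) was higher in KO by 1.77 in the average over conditions. Their part in the results was not tested. The 2 control EtOH samples differed from each other more than the replicates of any other group, with a median absolute difference over genes of 0.238 on the log2 scale, against 0.076 to 0.172 in the other 5 groups. In that pair the difference of replicate 2 from replicate 1 ran against exon length (Spearman's rho = -0.52 across 11228 genes of those samples, a description, since genes are not independent). Such a trend was not limited to that pair, with rho from -0.413 in control DHT to 0.345 in KO EtOH in the other groups. Among the members, replicate 2 of control EtOH was above replicate 1 by 1.03 for BAD and 0.61 for BAX (exonic lengths 1.71 kb and 2.59 kb), and below it by 0.62 for BMF and 0.43 for BCL2L11 (5.45 kb and 6.74 kb). For the members, leaving out either control EtOH sample could change a call or move a called value by over 1.5 times. The value without it is then given too. BAG1 and the other apoptosis genes were not checked in this way.

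Per kb of exonic length, which allows genes to be set roughly beside each other, MCL1 and BCL2L1 held the highest levels. Exonic length merges the exons of all annotated transcripts of a gene, so levels compared between genes depend on the annotation. MCL1 (chr1:150533371-150552214, GRCh37) stood at 1160 ± 36.1 normalized counts per kb in control EtOH (SD, n = 2), and its group means ran from 959 to 1160. BCL2L1 (chr20:30252255-30311792) ran from 570 ± 3.13 in control EtOH to 1140 ± 95.2 in KO DHT. BAX (chr19:49458072-49465055) followed with group means of 405 to 485, overlapping the 265 to 419 of BCL2L2 (chr14:23767999-23780960), and BAK1 (chr6:33540324-33548070) ran from 187 to 358. Among the BH3-only genes, BAD (chr11:64037302-64052176) had group means between 78.0 and 225, BCL2L11 (chr2:111876955-111926021) between 110 and 165, BID (chr22:18216904-18257536) between 62.6 and 170, and BMF (chr15:40380091-40401093) between 25.0 and 146. BCL2 itself (chr18:60790579-60987361), with an exonic length of 12.61 kb, was the scarcest member in every group, at 5.76 to 11.8 normalized counts per kb. The 4 BH3-only genes overlapped each other and could not be ranked across all groups. Levels also varied unequally over the 6 groups: the highest group mean of BMF was 5.84 times its lowest, against 2.89 for BAD, 2.72 for BID, 2.05 for BCL2 and 2.0 for BCL2L1, and only 1.21 for MCL1 and 1.2 for BAX.

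**Figure D1:**
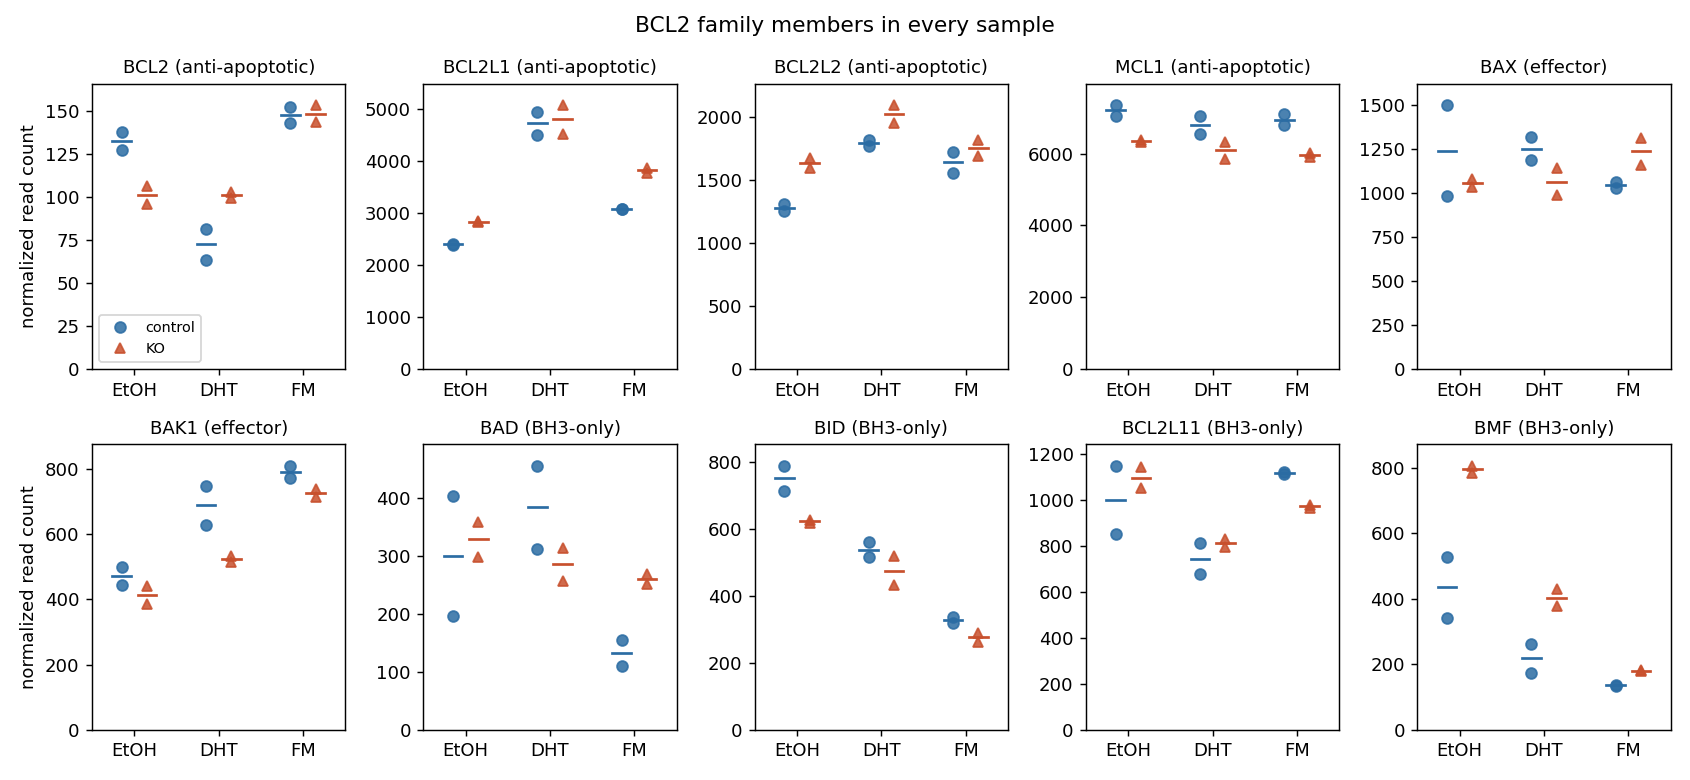
Normalized read counts (y axes, linear, from 0) of the 10 members in the 12 samples, 1 panel per gene, with the 6 groups on the x axis, points for samples and bars for the mean of the 2 samples. BMF spans the widest range of group means (5.84-fold) and BAX the narrowest (1.2-fold).

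BMF and BCL2L1 are the members called with DHT in both lines, in opposite directions, so the sequences just before their start sites are shown. They are the 250 bases upstream of the first listed start in RefSeq (promoter table on GRCh38.p14), located by a single exact match in GRCh37 at chr15:40401081-40401330 (minus strand) for BMF and chr20:30311767-30312016 (minus strand) for BCL2L1, and written 5′ to 3′ with the letters GGGCGG, the GC box bound by Sp1-type factors, in capitals.
BMF: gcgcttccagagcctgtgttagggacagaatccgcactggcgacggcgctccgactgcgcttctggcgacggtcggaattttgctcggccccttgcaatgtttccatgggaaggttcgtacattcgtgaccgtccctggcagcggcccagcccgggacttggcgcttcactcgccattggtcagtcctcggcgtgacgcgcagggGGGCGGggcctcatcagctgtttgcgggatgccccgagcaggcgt
BCL2L1: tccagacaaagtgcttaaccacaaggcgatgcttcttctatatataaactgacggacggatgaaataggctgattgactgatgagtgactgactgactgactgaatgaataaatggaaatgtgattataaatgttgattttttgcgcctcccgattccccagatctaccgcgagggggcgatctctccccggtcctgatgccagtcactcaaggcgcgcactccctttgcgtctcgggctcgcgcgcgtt
The BMF stretch has 65.2% G and C and holds 1 GC box, and the BCL2L1 stretch holds none. The search covered both strands of the 250 bases before each listed start. GGGCGG occurred in 42.6% of all 35116 windows, and in windows of BAX, BAK1, BAD, BID, BCL2L11 and BMF. Among the 15 windows of the 8 members listed in the table, the FOXO letters GTAAACA (2.98% of all windows) were in that of BCL2L11, and the E-box CACGTG (6.34%) was in those of BAX and BID. BCL2L2 and MCL1 had no entry. These are matches of letters and not measured binding sites.

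The first comparison asks which members respond to androgen, and whether they do so alike with and without Bag-1L. In the control line 1 member rose with DHT and 2 fell, 3 of 10, where 11.4% of all genes tested were called (6.04% higher and 5.37% lower). BCL2L1, the gene of the survival protein BCL-XL, rose about 2-fold, while BCL2 and the BH3-only gene BMF fell. In the KO line BCL2L1 rose and BMF fell again, 2 of 10, where 7.68% of genes were called (4.43% higher and 3.24% lower). The median log2 fold change of the members was -0.036 in control and -0.029 in KO, beside -0.017 and -0.014 over all genes tested. An adjusted p of 0.05 or less at any fold was reached by 7 members in control and 5 in KO, where 19.9% and 13.6% of all genes reached it.

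BCL2L1 was at 2400.9 and 2382.3 normalized counts in control EtOH and at 4946.9 and 4487.8 in control DHT. In KO it was at 2833.8 and 2818.6 in EtOH and at 4511.6 and 5076.8 in DHT. The DHT samples lay above the EtOH samples with no overlap in either line. The log2 fold change was 0.98 (SE 0.10, adjusted p = 2.11e-20) in control and 0.76 (SE 0.10, adjusted p = 2.03e-12) in KO. The difference between these responses was -0.22 (SE 0.14, 95% interval -0.50 to 0.06, adjusted p = 1). Exons of ABALON, annotated on the other strand, cover 41.3% of the exonic length of BCL2L1, and the sources used here do not state whether reads were counted by strand.

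BCL2 was at 138.0 and 127.3 in control EtOH and at 63.6 and 81.7 in control DHT, and at 96.1 and 106.3 in KO EtOH and 103.3 and 99.6 in KO DHT. The EtOH and DHT samples of control did not overlap, whereas the DHT samples of KO lay between its EtOH samples. BCL2 fell by 0.87 on the log2 scale in control (SE 0.23, adjusted p = 0.00189). In KO its log2 fold change was 0.00 (SE 0.23, 95% interval -0.45 to 0.45, adjusted p = 0.998). The difference between the responses was 0.87 (SE 0.33, 95% interval 0.23 to 1.51), and it did not pass over all genes (adjusted p = 0.563), so a different response of BCL2 in the KO line was not shown. The fall in control was itself lost without replicate 1 of control DHT (-0.70, adjusted p = 0.0969) and in a fit of the 4 samples compared alone (-0.85, adjusted p = 0.0972).

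The other anti-apoptotic genes moved less. BCL2L2 was at 1311.3 and 1253.3 in control EtOH and 1773.8 and 1821.7 in control DHT, a log2 fold change of 0.49 (SE 0.11, adjusted p = 8.57e-05) that is under 1.5-fold, and in KO it was 0.31 (SE 0.11, adjusted p = 0.0312). MCL1, whose protein is short-lived and renewed from a steady supply of mRNA, differed by -0.09 (SE 0.09, adjusted p = 0.616) in control and by -0.06 (SE 0.09) in KO. With MCL1 nearly level, the make-up of the anti-apoptotic mRNA differed between EtOH and DHT: of the summed counts per kb of the 4 genes, MCL1 made up 58.1% and 57.5% in the control EtOH samples and 40.4% and 43.8% in control DHT, and BCL2L1 28.1% and 28.8% against 45.3% and 41.4%. In KO, MCL1 made up 49.7% and 50.4% in EtOH and 40.2% and 36.7% in DHT. These shares are descriptions of the summed levels and carry no test.

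Of the effectors, BAX differed by 0.01 (SE 0.17, adjusted p = 0.976) in control and by 0.01 (SE 0.17) in KO. Its control EtOH samples lay apart, at 982.1 and 1503.0. Without replicate 1 of control EtOH the value in control was -0.26, and without replicate 2 it was 0.35. A level BAX in control was therefore not resolved. BAK1 was at 444.4 and 498.4 in control EtOH and at 750.1 and 629.4 in control DHT, with no overlap. Its log2 fold change of 0.55 (SE 0.14, adjusted p = 9.60e-04) lay just under 1.5-fold, and it passed without replicate 2 of control EtOH (0.63) or without replicate 2 of control DHT (0.67). In KO BAK1 differed by 0.34 (SE 0.14, adjusted p = 0.108).

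BMF, whose protein is held at the cytoskeleton until the cell is stressed or detached, was at 526.2 and 342.2 in control EtOH and at 262.5 and 172.5 in control DHT. In KO it was at 782.2 and 806.5 in EtOH and at 377.6 and 429.3 in DHT. Groups did not overlap in either line, although replicate 1 was well above replicate 2 in both control groups. BMF fell by 1.0 in control (SE 0.22, adjusted p = 6.77e-05) and by 0.98 in KO (SE 0.21, adjusted p = 6.73e-05), and the difference between the responses was 0.02 (SE 0.30, 95% interval -0.57 to 0.61, adjusted p = 1). Without replicate 1 of control EtOH the value in control was -0.65 (adjusted p = 0.0135) and still passed.

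Of the remaining BH3-only genes none was called with DHT in either line. BID, which caspase-8 cleaves to link death receptors to mitochondria, was at 712.8 and 789.8 in control EtOH and 514.9 and 561.9 in control DHT, a difference of -0.48 (SE 0.14, adjusted p = 0.00561), and in KO the difference was -0.39 (SE 0.14, adjusted p = 0.0456). BCL2L11 (BIM) differed by -0.43 (SE 0.15) in each line, with adjusted p = 0.0283 in control and 0.0323 in KO. BAD, which is switched off by survival kinases, was at 197.0 and 403.9 in control EtOH and at 313.0 and 456.9 in control DHT, and the groups overlapped (0.36, SE 0.28, adjusted p = 0.436), and in KO it differed by -0.20 (SE 0.28, adjusted p = 0.781). Without replicate 2 of control EtOH, the count of members called in control was 6: BAD (0.97, adjusted p = 0.00113) and BAK1 were then called higher and BCL2L11 (-0.63) lower. Without replicate 1 the values went the other way, to -0.07 for BAD (adjusted p = 0.87) and -0.19 for BCL2L11 (adjusted p = 0.338), and 3 members were called. Without replicate 2 of control EtOH the difference between the lines in the DHT response of BAD was -1.17, and without replicate 1 it was -0.14. With all samples it was -0.56 (SE 0.39, adjusted p = 1). With all samples no member's DHT response was called different between KO and control by DESeq2 or edgeR, where 0.408% of genes were. BCL2 alone had an unadjusted p under 0.05 by DESeq2.

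**Figure D2:**
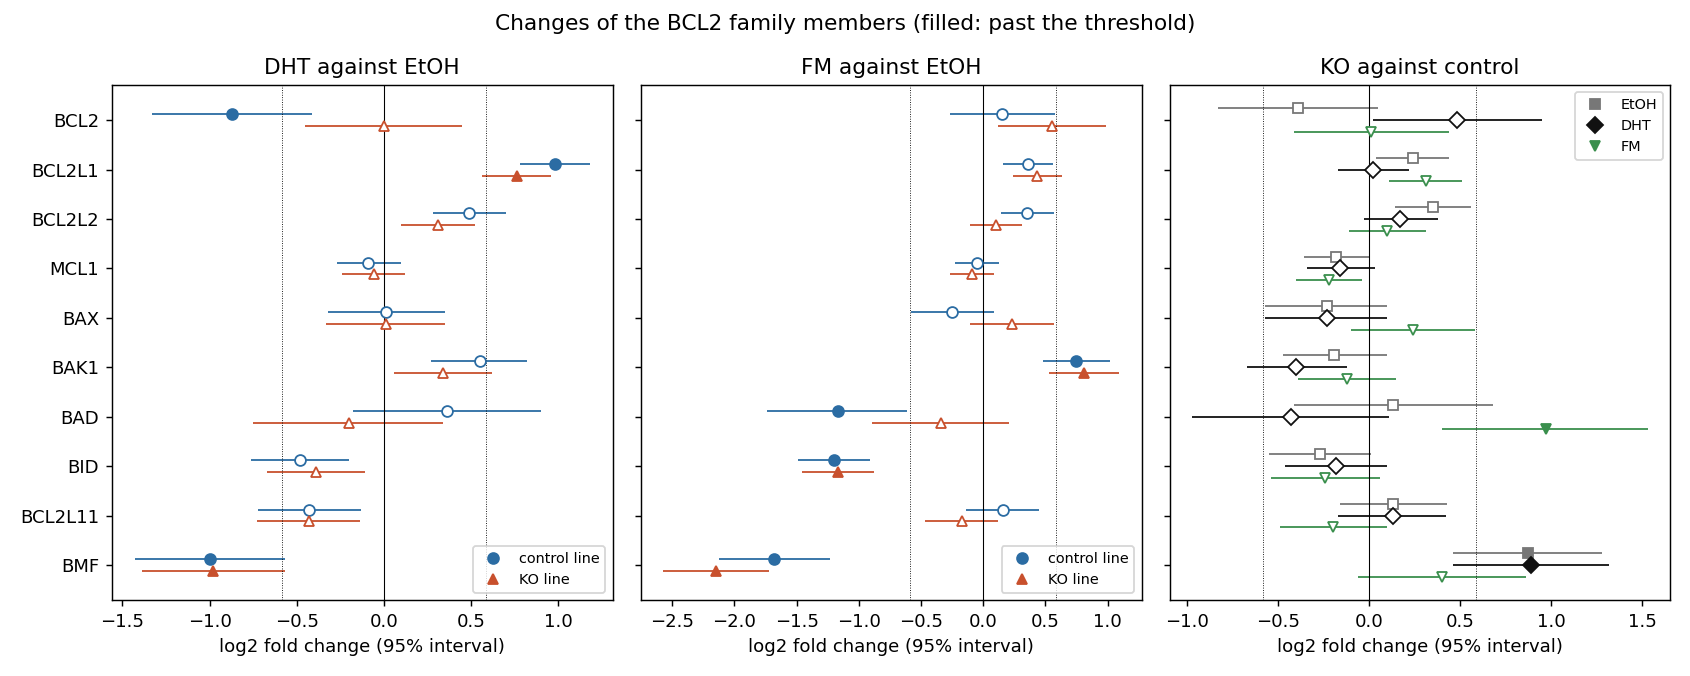
Log2 fold changes of the 10 members (x axes) with 95% intervals (lines), for DHT against EtOH and FM against EtOH (circles for control, triangles for KO) and for KO against control (squares EtOH, diamonds DHT, triangles FM). Members are on the y axis by role, filled points are called, and dotted lines mark a 1.5-fold change. BCL2L1 lies to the right of 0 and BMF to the left with DHT in both lines, and BMF lies to the right for KO against control in EtOH and in DHT.

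The second comparison asks how the KO line differs from control in each culture condition. BMF was higher in KO in EtOH and in DHT and BAD was higher in KO in FM, and no other member passed in any condition. That is 1 of 10 members each time, where 5.11% of all genes were called in EtOH, 7.98% in DHT and 8.01% in FM, shares close to that of the members. At any fold, 2 members reached an adjusted p of 0.05 or less in each condition, where 9.81%, 16.4% and 18.5% of all genes did. The genes called, BMF and BAD, are BH3-only, but the BH3-only genes BID and BCL2L11 were not called in any condition. Because the samples are bulk RNA, fewer cells with a gene on and less of its RNA per cell cannot be told apart.

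BMF, by the sample values above, was higher in both KO samples than in both control samples in EtOH and in DHT. The log2 difference was 0.87 (SE 0.21, adjusted p = 9.28e-04) in EtOH and 0.89 (SE 0.22, adjusted p = 7.76e-04) in DHT. In FM BMF stood at 134.7 and 137.1 in control and at 178.1 and 180.8 in KO, again with no overlap, but the difference of 0.40 (SE 0.23) did not pass (adjusted p = 0.227). Averaged over the 3 conditions BMF was higher in KO by 0.72 (SE 0.13, adjusted p = 2.84e-07), the only one of 10 members called where 7.55% of genes were. The average passed without each of the 12 samples in turn. Without replicate 1 of control EtOH the difference in EtOH was 1.21, and without replicate 2 it was 0.59 (adjusted p = 0.0324), both called. The EtOH call was lost without replicate 2 of KO EtOH (0.85, adjusted p = 0.0505), and the DHT call without replicate 2 of control DHT (0.62, adjusted p = 0.103).

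BAD was at 155.7 and 110.9 in control FM and at 251.8 and 268.5 in KO FM, a difference of 0.97 (SE 0.29, adjusted p = 0.00847). In EtOH it differed by 0.13 (SE 0.28) and in DHT by -0.43 (SE 0.28, adjusted p = 0.317), and in both conditions the samples of the lines overlapped. The call in FM was lost without replicate 2 of control FM (0.74, adjusted p = 0.247), replicate 1 of KO FM (1.01, adjusted p = 0.0584) or replicate 2 of KO FM (0.92, adjusted p = 0.127). Without replicate 2 of control EtOH, BAD was called higher in KO in EtOH too (0.74, adjusted p = 0.0385), and without replicate 1 the difference was -0.29 (adjusted p = 0.413). Exons of GPR137 on the other strand cover 23.7% of the exonic length of BAD. Over all samples GPR137 had 18999 counts and BAD 3427. Since the strand setting of the counting is not stated, the size of any effect on the counts of BAD is not known. No single annotated neighbour shares more than 16.8% of the exonic length of BCL2L2, BCL2L11, BMF, MCL1 or BAK1.

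Other members differed between the lines by less than 1.5-fold, and 5 of them reached the adjusted p in the average over conditions. BCL2L1 differed by 0.19 (SE 0.06, adjusted p = 0.00532) and BCL2L2 by 0.21 (SE 0.06, adjusted p = 0.00441), both towards KO. BCL2L1 also reached it in FM (0.31, SE 0.10, adjusted p = 0.0165) and BCL2L2 in EtOH (0.35, SE 0.11, adjusted p = 0.0158). MCL1 differed by -0.19 (SE 0.05, adjusted p = 0.00293), and its KO samples lay below its control samples within each condition, at 6333.3 and 6385.3 against 7366.4 and 7048.6 in EtOH. BAK1 differed by -0.24 (SE 0.08, adjusted p = 0.0163), and by -0.40 in DHT alone (SE 0.14, adjusted p = 0.0308), and BID by -0.23 (SE 0.08, adjusted p = 0.0266). An adjusted p at or under 0.05 without regard to fold was reached by 28.7% of all genes in this average and by 6 of the 10 members, BMF included. BCL2, the protein for which Bag-1 is named, differed between the lines by -0.39 (SE 0.23, adjusted p = 0.336) in EtOH, 0.48 (SE 0.24, adjusted p = 0.157) in DHT and 0.01 in FM.

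The third comparison sets full medium beside hormone-starved cells given EtOH, groups that differ in serum, starvation and vehicle together. In control BAK1 rose and BAD, BID and BMF fell, 4 of 10 members where 21.3% of genes were called (9.81% higher and 11.5% lower). In KO BAK1 rose and BID and BMF fell, 3 of 10 where 19.3% were called (9.61% higher and 9.68% lower). No anti-apoptotic gene was called in either line. The median log2 fold change of the members in control was 0.051, beside -0.009 over all genes. At any fold, 6 members in control and 5 in KO reached an adjusted p of 0.05 or less, where 34.9% and 31.7% of all genes did.

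BMF had its lowest levels in FM, with the values given above, and fell by 1.68 in control (SE 0.22, adjusted p = 2.53e-12) and by 2.15 in KO (SE 0.22, adjusted p = 3.52e-21). In control the value was -1.33 without replicate 1 of control EtOH and -1.95 without replicate 2. BID was at 335.7 and 318.1 in control FM and at 290.1 and 263.0 in KO FM, below every starved sample of either line. It fell by 1.20 (SE 0.15, adjusted p = 9.22e-15) in control and by 1.17 (SE 0.15, adjusted p = 1.33e-13) in KO. BAK1 was at 811.7 and 774.3 in control FM and at 716.3 and 738.7 in KO FM, against 444.4 and 498.4 and 385.4 and 442.3 in EtOH, and rose by 0.75 (SE 0.14, adjusted p = 9.17e-07) in control and 0.81 (SE 0.14, adjusted p = 1.32e-07) in KO. The pore-forming effector BAK1 and the BH3-only genes BID and BMF thus moved in opposite directions in both lines. BAD fell by 1.17 in control (SE 0.29, adjusted p = 2.68e-04), a call lost without replicate 2 of control EtOH (-0.57, adjusted p = 0.0907) and kept without replicate 1 (-1.60), and in KO it differed by -0.34 (SE 0.28, adjusted p = 0.395).

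BCL2L1 differed between FM and EtOH by 0.36 (adjusted p = 0.00184) in control and 0.43 (adjusted p = 1.29e-04) in KO, and BCL2L2 by 0.35 (adjusted p = 0.00451) in control, all under 1.5-fold. BCL2 differed by 0.15 in control and by 0.55 in KO (SE 0.22, adjusted p = 0.0433). No member's FM response was called different between the lines by DESeq2 or edgeR, where 1.39% of genes were, and BAD alone had an unadjusted p under 0.05 by DESeq2 (0.83, SE 0.40, adjusted p = 0.285). Without replicate 1 of control EtOH, 3 members were called: BAD (1.26), BAX (0.75) and BMF (-0.82). Without replicate 2 of control EtOH none was, at 0.23, 0.14 and -0.19 for these genes. The DHT and FM comparisons of a line share its EtOH samples.

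Summed by role per kb of exonic length, the anti-apoptotic genes lay between 1969.5 and 2047.0 in the 4 EtOH samples, between 2190.6 and 2259.3 in FM and between 2535.1 and 2601.3 in DHT, so the 3 conditions did not overlap. The BH3-only genes lay between 543.6 and 669.3 in EtOH, between 440.4 and 526.7 in DHT and between 328.0 and 395.1 in FM, again without overlap between conditions. The effectors overlapped between conditions, with 580.5 and 806.3 in the control EtOH samples as the widest pair. The order of the conditions differed between the roles: DHT was highest for the anti-apoptotic sum and FM lowest for the BH3-only sum. The genes of a role did not all move with its sum. From EtOH to DHT in control, the mean per kb of BCL2L1 went from 570 to 1120 and that of BCL2L2 from 265 to 371. MCL1 went from 1160 to 1090 and BCL2 from 10.5 to 5.76. Most of the higher anti-apoptotic sum in control DHT was thus BCL2L1.

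**Figure D3:**
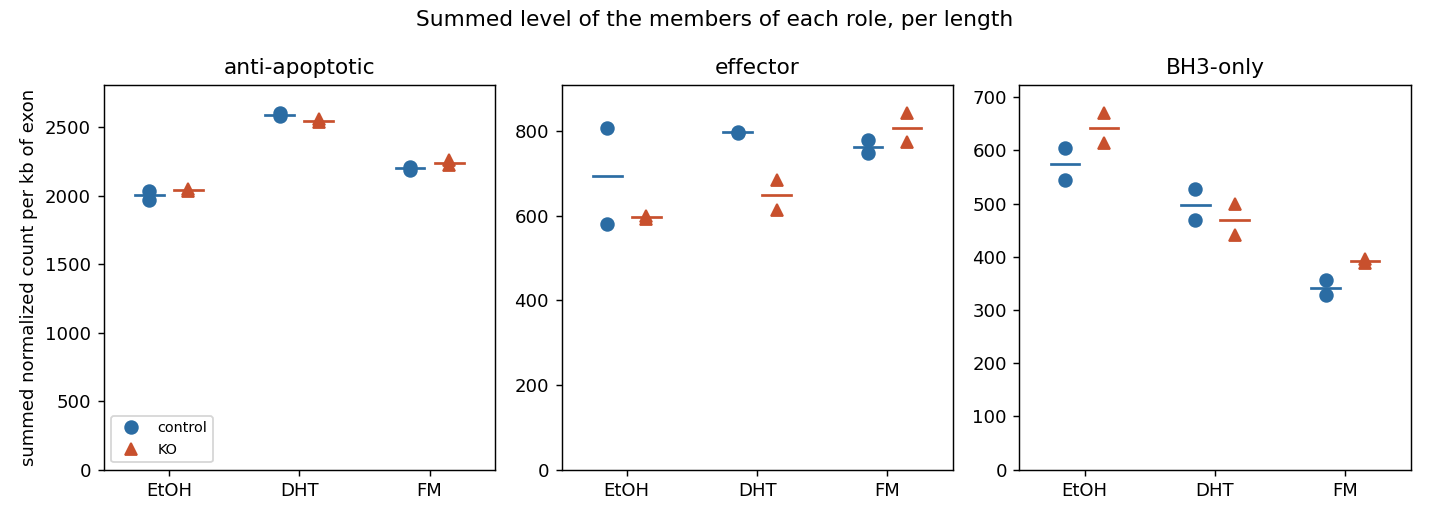
Summed normalized counts per kb of exonic length (y axes, from 0) of the anti-apoptotic, effector and BH3-only members in the 12 samples, with the 6 groups on the x axis, points for samples and bars for the mean of the 2 samples. The 4 DHT samples hold the highest anti-apoptotic sums (2535.1 to 2601.3) and the 4 FM samples the lowest BH3-only sums (328.0 to 395.1).

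BMF had the widest range among the members, and the genes whose levels were most like it over the 12 samples were SLFN5 (Pearson's r = 0.99), BRD3OS (0.988), TSHZ3 (0.988), VGLL4 (0.983) and ANTXR1 (0.982), among 11374 genes with a mean of at least 100 normalized counts. These correlations describe libraries that share 6 groups and carry no test.

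Of 33 other genes of the apoptosis pathway (further BCL2 family genes, caspases and their activators, inhibitors of apoptosis, and genes of MCL1 stability), 29 had an adjusted p. DHT raised none of them, where 6.04% of all genes were called higher in control and 4.43% in KO. It lowered 2 in control (5.37% of all genes), BCL2L14 (-1.79, SE 0.33) and BOK (-0.80, SE 0.17), and 3 in KO (3.24%), BCL2L14 (-1.70), the executioner caspase gene CASP6 (-0.74) and NAIP (-0.70). BCL2A1 and BIRC7 fell under the filter on low counts, and BCL2L10 and BIRC3 had at most 8 and 6 counts in a sample, too few for an adjusted p.

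Between the lines, BOK, a BAX-like effector that was not among the 10 members, and CASP8, the initiator caspase that cleaves BID, passed in every condition. BOK was at 374.0 and 416.8 in control EtOH and at 709.9 and 719.9 in KO EtOH, and was higher in KO by 0.85 in EtOH, 1.24 in DHT and 1.10 in FM (average 1.06, SE 0.10, adjusted p = 6.32e-25). CASP8 was scarce, at 99.9 and 82.6 in control EtOH and at 21.5 and 24.5 in KO EtOH, and was lower in KO, with log2 differences of -1.99 in EtOH, -1.69 in DHT and -1.59 in FM (average -1.75, SE 0.19, adjusted p = 2.60e-18). The samples of the lines did not overlap for either gene in any condition. BIK, a BH3-only gene, was higher in KO in EtOH (0.69) and DHT (0.60) and in the average (0.62, SE 0.11, adjusted p = 3.56e-07). In all, 2 of 29 were higher and 3 lower in EtOH, 2 and 3 in DHT, and 1 and 2 in FM, where 5.11%, 7.98% and 8.01% of all genes were called in either direction. The other genes called lower in KO were BIRC5 (-0.66) and BCL2L12 (-0.60) in EtOH, BIRC5 (-0.73) and PMAIP1 (-0.63) in DHT, and APAF1 (-0.62) in FM. The control EtOH samples lay apart for BCL2L12, at 326.4 and 515.3 against 291.6 and 265.4 in KO EtOH. For BIRC5 they were at 956.4 and 1316.0 against 734.7 and 699.2.

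Between FM and EtOH, 3 of the 29 rose and 6 fell in control, and 4 rose and 6 fell in KO, where 21.3% and 19.3% of all genes were called. CASP8, BIRC5 and CYCS, the cytochrome c gene, rose in both lines, by 0.84, 0.65 and 0.59 in control and 1.24, 1.39 and 0.63 in KO, and BCL2L12 rose in KO (1.26). BIK, BNIP3L, BBC3 (PUMA), HRK, BOK and NAIP fell in both. BBC3, a BH3-only gene known as a target of p53, fell by 2.35 in control (SE 0.44) and by 1.15 in KO (SE 0.41). It was scarce, and its control samples lay apart, at 71.4 and 128.3 in EtOH and at 30.9 and 8.8 in FM. In KO it was at 80.3 and 72.5 in EtOH and at 33.6 and 35.1 in FM. The size of the fall in control is therefore uncertain. None of the 28 genes with an adjusted p in the tests of the difference between lines was called for DHT or for FM.

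**Figure D4:**
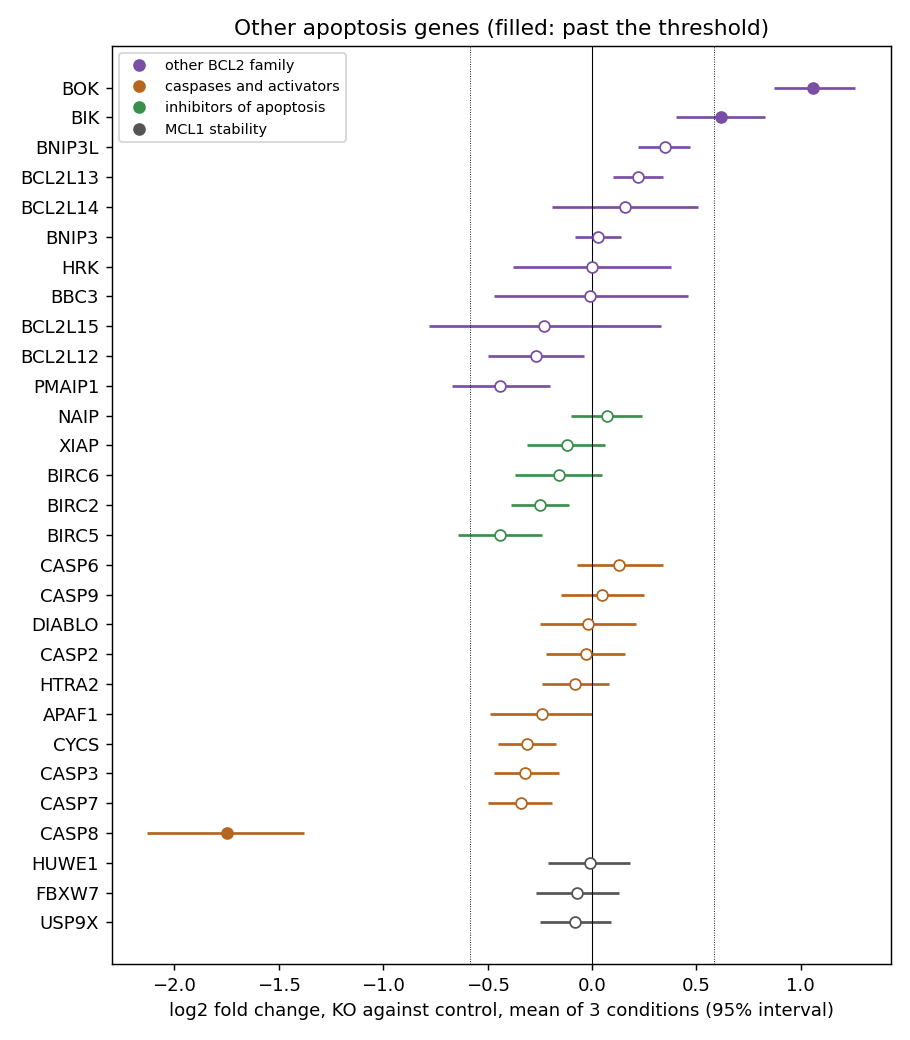
Log2 fold change of KO against control averaged over the 3 conditions (x axis), with 95% intervals (lines), for the 29 other apoptosis genes with an adjusted p (y axis), coloured by list, with filled points for called genes and dotted lines at a 1.5-fold change. BOK (1.06) and BIK (0.62) are the called genes on the right and CASP8 (-1.75) is the called gene on the left.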

How the data were processed

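Per the labels and the study's methods, the authors extracted RNA, made stranded mRNA libraries (TruSeq, poly-dT beads), aligned the reads to GRCh37 with TopHat2 (2.0.11 in the submitters' processing notes, with CASAVA 1.7) and assigned them to Ensembl genes with HTSeq (0.5.3p3). The deposited values are raw read counts per gene, with 1 file per sample and replicates kept apart. HTSeq's strand setting and the Ensembl release are not given in the sources used here. Each file also held 5 tallies of uncounted reads, which were left out, and the ambiguous tally came to between 9.445% and 11.626% of the gene counts. The chi-square per degree of freedom between replicates was between 3.19 and 36.5, so every sample was counted once. P-values measure the spread between these samples of 1 line each.

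Symbols, positions and exonic lengths came from GENCODE on GRCh37, which matched 55665 of the 63677 identifiers. Genes with fewer than 10 counts over the 12 samples were left out, which kept 26156. DESeq2 (1.42.0, R 4.3.3) was fitted to all samples with 1 coefficient per group, median-of-ratios size factors, Wald tests, unshrunken log2 fold changes and Benjamini-Hochberg adjustment over all genes. DESeq2 gives no adjusted p to very scarce genes. The script was tested on simulated data. Alternatives were edgeR's quasi-likelihood test (4.0.16, TMM), TMM size factors in DESeq2, no count filter, at least 10 counts in every sample, the replicate number as a block, only the samples compared, no fold change minimum, and each of the 12 samples left out in turn. The text names all 10 members, BAG1, the genes called from fixed lists of other apoptosis genes, and the 5 genes most like the member with the widest range, by Pearson correlation on log2 of the normalized count plus 1. Members and lists were chosen with earlier results of these data known. Promoter sequences and motif shares came from a RefSeq table. Some marker and motif results are not reported here.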

Additional observations from a re-analysis of the deposited data

How the results depend on the processing

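Each member result was recomputed with edgeR, TMM size factors, both filter settings and the replicate block. Further settings were only the samples compared, no fold change minimum, and each sample left out. Apart from the setting without a fold change minimum, these gave 1790 member values. Of these 1773 kept their side of the threshold, 8 lost the call and 9 gained it. No called value changed sign, and 51 values that were not called did. Scaling moved the median of all genes by at most 0.032. Without the fold change minimum the members called numbered 7 for DHT in control and 5 in KO, 2 for KO against control in EtOH, 2 in DHT, 2 in FM and 6 in the average, and 5 for FM in KO. With 1 sample left out in turn the count ran from 2 to 6 for DHT in control, 0 to 1 for the difference in DHT response, 0 to 2 for KO against control in EtOH, 0 to 1 in DHT, 0 to 1 in FM, 3 to 4 for FM in control and 0 to 3 for the difference in FM response, a group left with 1 sample being taken to vary like the others. It was 2 throughout for DHT in KO, 1 for the averaged difference and 3 for FM in KO. The rise of BCL2L1 and the fall of BMF with DHT in both lines, the averaged difference of BMF, and the changes of BID, BAK1 and BMF in FM in both lines passed under all of the alternatives run for them. BCL2 in control DHT was lost with only the samples compared (-0.85, adjusted p = 0.0972 by DESeq2).

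Replicate numbers did not pair the samples: deviations of same-numbered samples correlated between -0.415 and 0.692 over the 15 pairs of groups, 8 of them positive. With the replicate block the members called numbered 3 and 2 for DHT in control and KO, 1 for KO against control in each condition, and 4 and 3 for FM, as without it. That block was 1 term shared by all 6 groups, so it could not show whether samples were paired within the control line. With 2 samples a group, moderate changes of BAD (SE 0.28 for DHT in control) could not be resolved, against an SE of 0.10 for BCL2L1.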
